A study of Homo sapiens with 12 samples.

Results

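The genes described here are long intergenic non-protein coding RNA genes whose symbol is LINC followed by a number alone, with a mean normalized count of at least 10 over 12 libraries. The rule uses the symbol and the overall level and no difference between treatments. It kept 226 of the 2077 LINC genes in a table of 36601 genes. Another 999 LINC genes were at 0 in every library, and 852 were above 0 but under the minimum. Just outside the minimum were LINC01629 with a mean of 9.96 and LINC01224 with 9.99 normalized counts, and just inside were LINC00526 with 10.0 and LINC02449 with 10.1.

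Total RNA depleted of ribosomal RNA was sequenced from KP4, an established human cell line labelled as a pancreatic ductal cell carcinoma of WT genotype. Cells received 1 of 4 treatments for 24 h: the vehicle DMSO, 10 mM metformin (Met), 5 nM FK866 (FK) or both drugs at those doses (Met+FK), with 3 libraries each, numbered as replicates 1 to 3. Metformin is a biguanide antidiabetic drug that inhibits mitochondrial complex I, and FK866 inhibits NAMPT, the enzyme that salvages nicotinamide for NAD synthesis. All 4 groups are the same single line, and the labels do not say that replicates were separate cultures, so the p-values measure the spread between these libraries.

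LINC genes are transcribed by RNA polymerase II, mostly spliced and polyadenylated like messenger RNAs, and hold no long open reading frame. Most are transcribed at low levels and in few tissues, many of their RNAs stay in the nucleus, and some act on the gene next to them while others bind proteins or microRNAs. For most of them no function has been shown, and many that were studied are known from tumours.

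The libraries held 30667735 to 41052203 counted read pairs. Of 7 ductal epithelial markers 6 reached a mean of 10 normalized counts. KRT18 was at 13174, SOX9 at 4319.5 and KRT8 at 2728, but KRT7 was at 248, CDH1 at 47.4, KRT19 at 33.7 and EPCAM at 8.93. VIM, a mesenchymal filament, stood at 103576. None of 4 acinar and none of 4 endocrine markers reached 10, against 2 of 5 fibroblast, 2 of 3 leukocyte and 1 of 3 endothelial markers. The summed ductal level, of which KRT18 was the largest part, was 25226 to 26168 normalized counts in DMSO, 19308 to 22812 in FK, 16390.5 to 19536 in Met and 16132 to 19566 in Met+FK. Among fibroblast markers COL1A1 had a mean of 138.7 and PDGFRB of 22.9, while COL1A2, DCN and LUM were at 0.42, 0 and 0.30. Their summed level, which was thus mostly COL1A1, was 139.9 to 203 in DMSO, 239.7 to 316 in FK, 80.3 to 112 in Met and 90.9 to 115 in Met+FK. It was above DMSO with FK866 alone and below it with metformin. The part of these shifts in the results on LINC genes was not tested.

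The word intergenic held for most of the 226 genes. In the deposited coordinates, on the hg38 build, 190 overlapped no protein-coding gene on either strand, 11 overlapped one on their own strand and 25 overlapped one only on the opposite strand. In addition, 28 began within 1000 bp of the start of a protein-coding gene read the other way. A later annotation, GENCODE release 44, classed 225 as lncRNA genes and 1, LINC00634 (now SMIM45), as protein-coding. It renamed 24, among them 15 as divergent transcripts of a neighbour, such as LINC01184 (SLC12A2-DT) and LINC01952 (H2AZ2-DT), and 2 as antisense genes. The genes spanned 436 to 790897 bp with a median of 23594 bp, while their main transcripts had a median length of 1595 bases, against 2989 over all genes tested. In all, 114 overlapped some other gene of the table when whole spans, introns included, were compared. Overlap between exons was not counted, and the strand setting of the counting is not given in the sources used here. Whether such pairs share counted reads is therefore not known.

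LINC genes were counted at low levels in KP4. Their mean levels ran from 10.0 to 4204 normalized counts with a median of 41.0, where the median of all 15376 genes tested was 724. These counts are not divided by length, and the main transcripts of LINC genes were shorter (median 1595 against 2989 bases). They measure the level of RNA and not its transcription. Of the 226, 124 lay under 50, 64 reached 100 and 9 reached 1000. The 10 highest held 45.7% of the summed level. They were LINC02693 with a mean of 4204, LINC00963 with 2458, LINC00472 with 2154, LINC02154 with 1384, LINC00665 with 1323.5, LINC00662 with 1269, LINC00205 with 1263, LINC01278 with 1131, LINC01184 with 1086 and LINC01578 with 925 normalized counts. LINC02693, the highest, lies at chr17:21428263-21574517 on the minus strand and overlaps 5 other genes of the table. Counts per kilobase of annotated exon gave another order, in which LINC02154 stood at 885 per kilobase and ranked 2, ahead of LINC02693 at 241 and LINC00963 at 175.

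With metformin these genes took a larger share of the sequenced RNA. In DMSO they took 0.0935%, 0.0907% and 0.0963% of counted read pairs in replicates 1 to 3, and in FK 0.0954%, 0.0964% and 0.0968%. In Met the shares were 0.127%, 0.122% and 0.127%, and in Met+FK 0.128%, 0.120% and 0.116%. Every library with metformin was thus above every library without it. The mean share in Met, 0.125% ± 0.00272 (SD, n = 3), was 1.34 times that in DMSO, 0.0935% ± 0.00277 (SD, n = 3). In Met+FK it was 0.121% ± 0.00637 (SD, n = 3), or 1.30 times the DMSO share. Both differences gave p = 0.1 in a two-sided exact permutation test, the smallest p that 3 libraries against 3 allow, and FK against DMSO gave a ratio of 1.03 with an exact p of 0.2. Without LINC02693 the Met ratio was 1.32, and with summed normalized counts in place of shares it was 1.23. In bulk RNA, fewer cells of a type and less RNA per cell cannot be told apart.

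**Figure D1:**
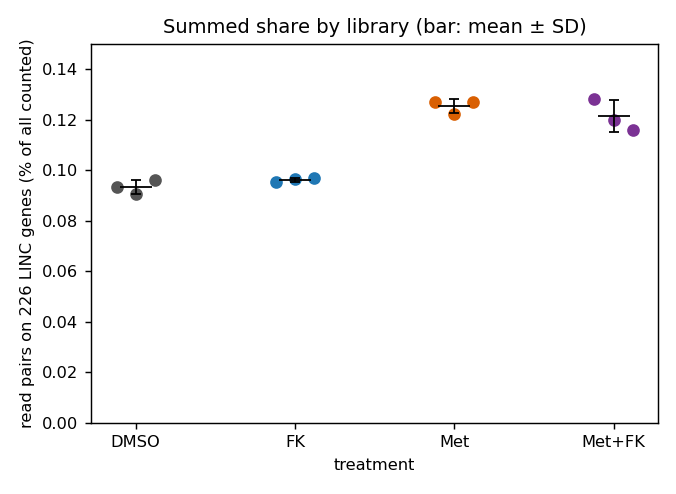
Share of all counted read pairs that fell on the 226 LINC genes, in percent (vertical axis, from 0), for each library of the 4 treatments (points) with the mean ± SD (bars, n = 3). The Met libraries lie between 0.122% and 0.127% and the DMSO libraries between 0.0907% and 0.0963%.

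Metformin alone changed 34.1% of the 226 LINC genes, more of them upward than downward. In Met against DMSO, 51 rose (22.6%) and 26 fell (11.5%), where 12.8% of all genes tested rose and 10.2% fell. A gene was called at a Benjamini-Hochberg adjusted p under 0.05 over all genes tested, from limma-trend on log2(normalized count + 1), with a fold change over 1.5. The median difference of the LINC genes was 0.12 on the log2 scale, against 0.012 for all genes. The Met and DMSO libraries did not overlap for 97.4% of the called LINC genes, and for 96.9% of all called genes. Of the 226, 15 averaged under 10 normalized counts over the 6 libraries without metformin, 9 of which rose, and 7 did so over the 6 with metformin, 4 of which fell. These 22 met the minimum through 1 side alone, so a test on them gives no separate support. Among the risers and fallers named here they include LINC01081, LINC02649, LINC01088, LINC02367, LINC01473, LINC01301, LINC01720 and LINC02643. Of the other 204, 42 rose and 22 fell. Of the 64 that averaged 100 or more normalized counts, 12 rose and 3 fell, and of the other 162, 39 rose and 23 fell. For these splits by side and by level, the like shares over all genes tested were not counted. Whether they are particular to LINC genes is therefore not known. The standard error of a LINC gene's log2 difference had a median of 0.23, against 0.12 over all genes tested. When all libraries were instead scaled to 1 common total, the median over all genes in Met against DMSO became 0.13, with 69 LINC genes higher and 20 lower, so that 77.5% of the called genes rose in place of 66.2%.

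**Figure D2:**
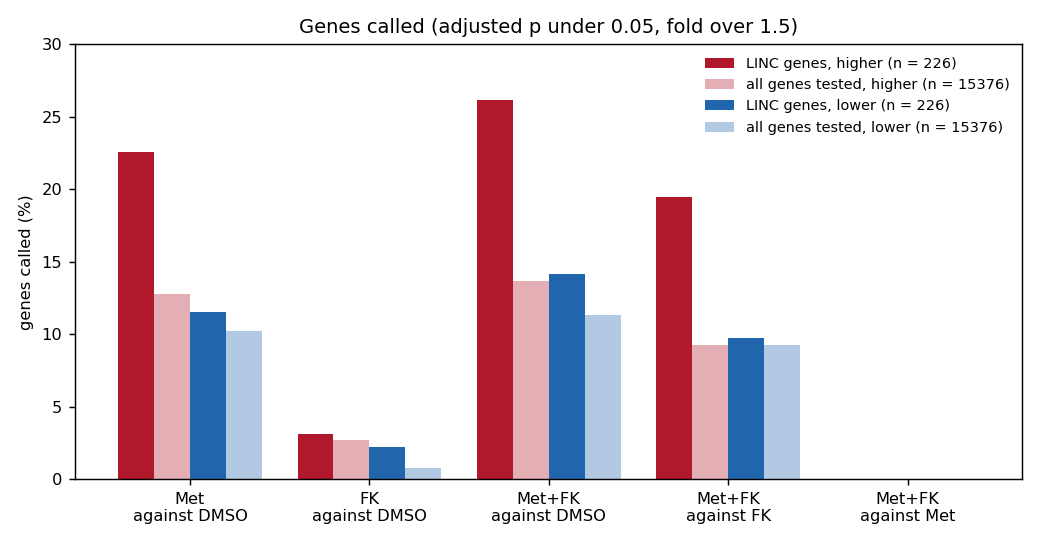
Percent of the 226 LINC genes (full colour) and of all 15376 genes tested (pale) called higher (red) or lower (blue) at an adjusted p under 0.05 and a fold over 1.5, in 5 comparisons (horizontal axis). In Met against DMSO 22.6% of LINC genes rose, against 12.8% of all genes, and in Met+FK against Met no LINC gene was called.

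The steepest riser with metformin was LINC01081, a gene upstream of FOXF1 that has been described as a regulator of that lung transcription factor. It stood at 2.31, 3.94 and 1.02 normalized counts in DMSO and at 20.9, 26.5 and 25.4 in Met. It was at 1.89, 3.54 and 1.15 in FK and at 25.1, 32.9 and 27.3 in Met+FK. All 6 libraries with metformin were above all 6 without it, and the DMSO values rest on 7 read pairs in all against 73 in Met. The log2 difference in Met against DMSO was 2.97 (SE 0.38). The gene met the minimum of 10 only through the libraries with metformin, so that its difference is given as a description.

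Other LINC genes at low levels rose from a few read pairs in the same way. LINC02649, which lies 16525 bp from PFKFB3, a gene of the enzyme that makes and breaks fructose 2,6-bisphosphate, went from 2.31, 4.93 and 6.14 in DMSO to 19.9, 21.7 and 26.4 normalized counts in Met (log2 difference 2.18, SE 0.36). LINC01844, which lies 9342 bp from ARHGAP26, was at 3.46, 6.90 and 7.16 in DMSO and at 28.2, 23.6 and 26.4 in Met (2.03, SE 0.31). LINC01088, whose start lies 47 bp from that of PAQR3, a Golgi protein that holds back RAF kinase, was at 2.31, 2.96 and 2.05 in DMSO and at 15.7, 12.3 and 19.3 in Met (2.27, SE 0.38). In none of these did the DMSO and Met libraries overlap. LINC02367 was at 0, 6.90 and 4.09 in DMSO and at 11.5, 20.8 and 16.2 in Met (2.29, SE 0.57), and LINC01473 went from 2.31, 5.91 and 7.16 to 33.4, 17.0 and 11.2 (1.78, SE 0.42). The DMSO values of LINC02649, LINC01844, LINC01088 and LINC02367 rest on 13, 17, 7 and 11 read pairs over 3 libraries. Of these 5 genes only LINC01844 averaged 10 or more without metformin (limma-trend adjusted p = 9.51e-05), and its call held without any 1 library. That average took in the FK libraries, where the gene was also called higher, and its DMSO values were all under 10. It thus met the minimum only through drug-treated libraries, so that a test on it gives no separate support either. The other 4 met the minimum through the libraries with metformin.

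Among the well-covered genes, LINC00662 and LINC00963 rose most. LINC00662, known from several carcinomas, was at 594, 696 and 644 normalized counts in DMSO, at 1759, 1811 and 1551 in Met, and at 1975, 1816 and 1703 in Met+FK. The lowest library with metformin was thus over 2 times the highest DMSO library. Its FK values of 883, 998 and 799 lay between those of DMSO and Met. LINC00963, known from prostate cancer, was at 1543, 1298 and 1574 in DMSO, at 1429, 1193 and 1405 in FK, and at 3504, 2993 and 3676 in Met. Its DMSO and FK libraries overlapped, and both lay far under Met. The log2 differences in Met against DMSO were 1.40 (SE 0.10, limma-trend adjusted p = 9.34e-08) for LINC00662 and 1.20 (SE 0.10, adjusted p = 4.67e-07) for LINC00963.

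LINC02762, which lies 794 bp from PTS, a gene of tetrahydrobiopterin synthesis read on the same strand, went from 33.5, 31.5 and 23.5 in DMSO to 76.3, 66.1 and 76.1 in Met (log2 difference 1.29, SE 0.17, limma-trend adjusted p = 1.95e-05). LINC00667, which overlaps ZBTB14 on the opposite strand, went from 153, 138 and 153 to 225, 254 and 238 (0.69, SE 0.11, adjusted p = 0.000189). Neither gene's Met libraries overlapped those of DMSO. Of the other highest genes, LINC02693 (0.53), LINC00472 (0.56), LINC01184 (0.47), LINC01278 (0.44), LINC02154 (0.42) and LINC00205 (0.32) passed the adjusted p in Met against DMSO but not the fold of 1.5.

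The promoters of LINC02762 and LINC00662 are shown because both genes rose with metformin and their RefSeq starts lie 0 and 65 bp from the deposited ones. A promoter here is the window from 250 bases before to 50 after the RefSeq start, on GRCh38.p14, written 5′ to 3′ on the gene's strand, and positions count from that start. LINC02762 is chr11:112270499-112270798 on the plus strand and LINC00662 is chr19:27793891-27794190 on the minus strand. Capitals mark TGANTCA, a pattern wider than the AP-1 site, which is TGAGTCA or TGACTCA. It occurred once in LINC02762, at position 37 after the start, and the LINC00662 window held none of the 4 motifs searched.
LINC02762: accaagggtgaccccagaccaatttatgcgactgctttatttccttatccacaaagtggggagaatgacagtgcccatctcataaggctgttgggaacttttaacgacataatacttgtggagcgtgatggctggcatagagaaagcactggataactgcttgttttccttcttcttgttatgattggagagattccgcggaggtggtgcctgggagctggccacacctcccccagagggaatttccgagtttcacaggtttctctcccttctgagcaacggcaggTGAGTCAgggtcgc
LINC00662: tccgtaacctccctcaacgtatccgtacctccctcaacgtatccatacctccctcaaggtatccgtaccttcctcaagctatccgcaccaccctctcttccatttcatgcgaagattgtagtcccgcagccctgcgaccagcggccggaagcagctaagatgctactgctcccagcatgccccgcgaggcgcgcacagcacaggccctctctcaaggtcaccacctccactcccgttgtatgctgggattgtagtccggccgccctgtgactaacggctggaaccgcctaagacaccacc

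The genes that fell with metformin were also mostly at low levels. LINC02643 had the lowest log2 difference, going from 26.5, 20.7 and 15.3 normalized counts in DMSO to 6.27, 2.83 and 6.09 in Met (-1.88, SE 0.39), and it met the minimum only through the libraries without metformin. LINC01348 went from 33.5, 39.4 and 51.2 to 14.6, 10.4 and 13.2 (-1.62, SE 0.26, limma-trend adjusted p = 0.00014). LINC01910 went from 53.1, 42.4 and 52.2 to 17.8, 15.1 and 16.2 (-1.53, SE 0.20, adjusted p = 2.53e-05). In each of them every DMSO library was above every Met library. LINC01275, LINC01783 and LINC02340 fell by 1.44, 1.38 and 1.28 on the log2 scale. The start of LINC02340 lies 21 bp from that of RPL21, a ribosomal protein gene that was not called in Met against DMSO (-0.02).

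Several LINC genes described in tumours were among those that fell. LINC00460, known from squamous and other carcinomas, was at 85.4, 95.6 and 100.3 in DMSO, at 70.8, 61.0 and 86.1 in FK, at 39.7, 34.0 and 54.8 in Met and at 28.2, 42.0 and 33.2 in Met+FK. All libraries with metformin were under all those without it, while FK overlapped DMSO. LINC00511, known from breast and lung cancer, went from 385, 374 and 485 in DMSO to 214, 237 and 316 in Met. LINC00857, known from lung cancer, went from 499.7, 522 and 475 to 307, 275 and 361. The log2 differences were -1.14 (SE 0.21), -0.71 (SE 0.15) and -0.67 (SE 0.13), with limma-trend adjusted p of 0.000402, 0.00134 and 0.000596. Without Met replicate 2 the fold of LINC00857 was 1.49 and its call was lost. LINC00513, which has been tied to interferon signalling in lupus, went from 98.1, 73.9 and 74.7 to 27.2, 35.9 and 48.7 (-1.15, SE 0.26), again without overlap.

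The promoters of LINC00460 and LINC02643 are shown as those of a known and of the steepest faller. LINC00460 is chr13:106376314-106376613 on the plus strand, its RefSeq start lying 2087 bp from the deposited one, and LINC02643 is chr10:21372901-21373200 on the minus strand, with both starts at the same base. TGANTCA stands in capitals. It occurred at -44 and -17 in LINC00460, and none of the 4 motifs occurred in LINC02643.
LINC00460: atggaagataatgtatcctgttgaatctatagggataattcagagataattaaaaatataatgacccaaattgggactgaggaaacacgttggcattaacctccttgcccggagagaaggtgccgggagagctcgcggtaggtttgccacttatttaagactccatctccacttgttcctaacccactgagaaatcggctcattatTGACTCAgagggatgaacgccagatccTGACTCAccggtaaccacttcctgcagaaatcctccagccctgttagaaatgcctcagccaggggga
LINC02643: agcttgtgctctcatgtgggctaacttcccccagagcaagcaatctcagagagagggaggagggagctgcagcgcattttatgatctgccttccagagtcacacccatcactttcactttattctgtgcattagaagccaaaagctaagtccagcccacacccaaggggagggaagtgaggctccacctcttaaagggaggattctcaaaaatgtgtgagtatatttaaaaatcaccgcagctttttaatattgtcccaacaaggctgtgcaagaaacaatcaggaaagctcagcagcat

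Other LINC genes with a described role were not called in Met against DMSO. LINC00665, which encodes a micropeptide, was at 1379, 1373 and 1466 normalized counts in DMSO and at 1269, 1209 and 1421 in Met (log2 difference -0.12, SE 0.09). LINC00467, also with a micropeptide, was at 690.1, 724 and 721 in DMSO and at 679, 730.4 and 656 in Met (-0.05, SE 0.08). In both the libraries of the treatments overlapped. LINC00346 (PRECSIT), a p53-regulated RNA that activates STAT3, differed by 0.15 (SE 0.26), and LINC01234, LINC01116, LINC01138 and LINC00842 differed by 0.07, -0.25, 0.23 and 0.36. The limma-trend adjusted p of these 7 genes ran from 0.15 to 0.766.

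**Figure D3:**
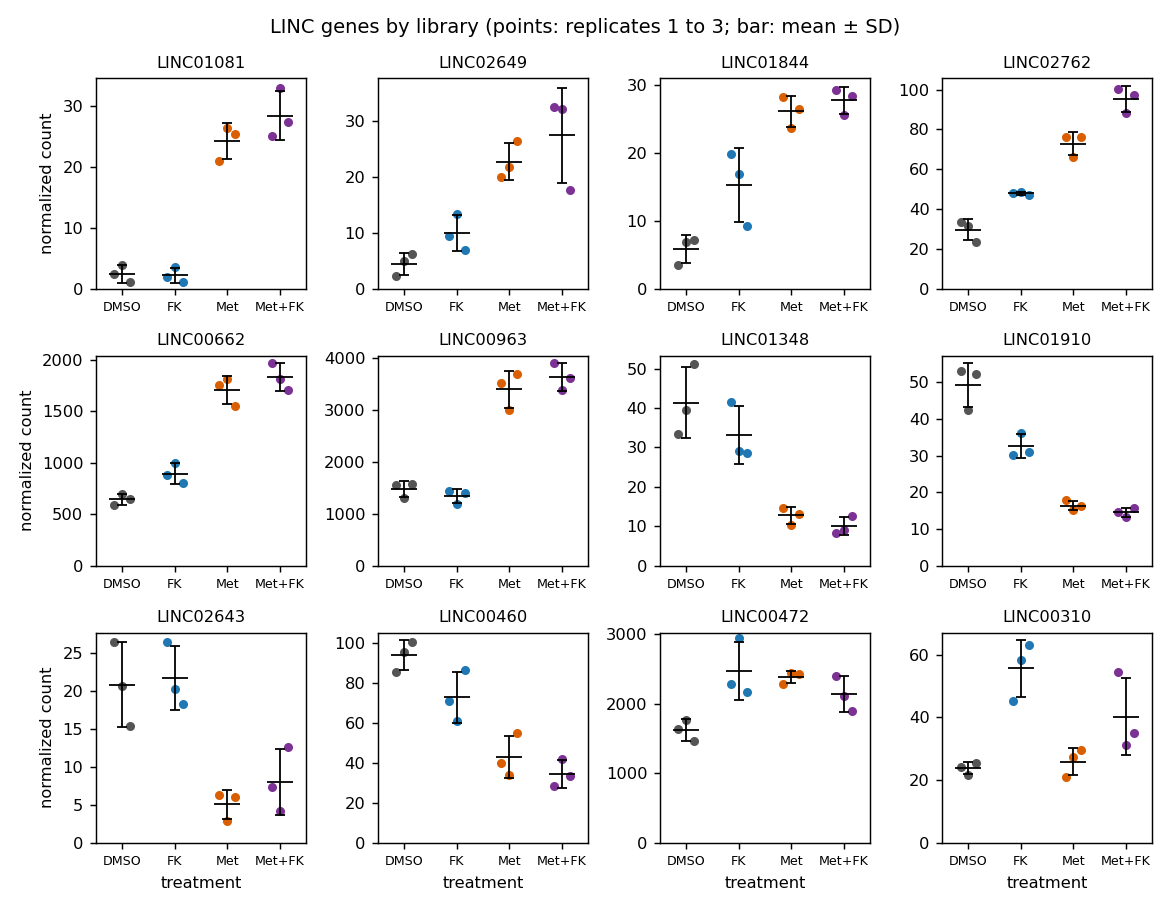
Normalized counts (vertical axes, each from 0) of 12 LINC genes in every library of DMSO, FK, Met and Met+FK (points), with the mean ± SD (bars, n = 3). LINC01081 and LINC00963 are high in the 6 libraries with metformin, alone or combined, LINC01348 and LINC01910 are low there, and LINC00310 is highest in FK.

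Most of the nearest genes of another kind were not called. Of the 51 risers in Met against DMSO, 40 had a tested neighbour within 50 kb, and of those neighbours 8 rose, 2 fell and 30 were not called. Of the 26 fallers 20 had one, and 6 of these fell, 1 rose and 13 were not called. Neighbours called in the direction of their LINC gene were thus 20% of those of risers, against 12.8% of all genes tested that rose, and 30% of those of fallers, against 10.2% that fell, differences that were not tested. LINC01275 fell by 1.44 on the log2 scale, and TMEM189, 9031 bp away on the same strand, fell by 0.83. LINC01783 fell by 1.38, whereas NBPF1, 26147 bp away on the same strand, rose by 1.02. LINC02361 rose by 0.94 and NOC4L, a gene of small-subunit ribosome assembly 34262 bp away on the opposite strand, fell by 0.84. For LINC02762 the neighbour PTS differed by -0.44 and for LINC01088 PAQR3 differed by 0.28, neither being called.

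A pair of LINC genes that have been described as acting on their neighbour were looked at after their values were seen. LINC01578 (CHASERR), which is known to hold down the chromatin remodeller gene CHD2 on the same strand 488 bp away, was at 968, 978 and 924 in DMSO and at 961, 967 and 831 in Met. Its libraries overlapped between all 4 treatments. CHD2 rose by 1.34 in Met against DMSO (limma-trend adjusted p = 6.18e-07) and by 1.497 in Met+FK against DMSO, where LINC01578 differed by -0.06 and -0.05. LINC00261, which is needed for FOXA2 transcription in endoderm and lies 2363 bp from it, was at 50.8, 71.9 and 45.0 in DMSO, at 72.7, 79.6 and 68.9 in FK, at 52.3, 33.1 and 44.6 in Met and at 53.3, 38.7 and 36.1 in Met+FK. Only Met+FK against FK was called for it (-0.79, SE 0.22, adjusted p = 0.00977), and FOXA2 differed by -0.12 there.

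LINC genes were called at every position relative to protein-coding genes. In Met against DMSO 35.3% of the 190 without any overlap were called, 27.3% of the 11 with overlap on the same strand, 28.0% of the 25 with overlap on the opposite strand alone, and 28.6% of the 28 with a divergent start. Of the 23 whose main transcript has a single exon, 21.7% were called. These differences between classes were not tested.

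FK866 alone changed few LINC genes. In FK against DMSO 7 rose (3.10%) and 5 fell (2.21%), where 2.73% of all genes tested rose and 0.754% fell, and 214 were not called. The median difference was 0.0061 on the log2 scale, against -0.016 for all genes. The FK and DMSO libraries did not overlap for any of the 12 called genes, nor for 87.1% of all called genes. With the replicate number as a block, 12 rose and 9 fell. Same-numbered libraries deviated together in this comparison, with correlations of 0.25, 0.42 and 0.22. These were 0.136, 0.172 and 0.132 after removal of GC and length trends, and the labels state no pairing. Single libraries mattered: without DMSO replicate 1 no LINC gene was called, without DMSO replicate 3 there was 1 in each direction, without FK replicate 2 there was 1 riser and no faller, and without FK replicate 1 there were 11 and 9. With the 6 libraries compared fitted alone, 1 rose and none fell.

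The best covered riser in FK was LINC00472, and LINC00310 was the one whose call outlasted most of the libraries left out. LINC00472, described as a tumour suppressor in breast cancer, was at 1641, 1765 and 1458 normalized counts in DMSO, at 2287, 2949.5 and 2173 in FK, at 2289, 2449 and 2432 in Met and at 2405, 2109 and 1889 in Met+FK. All drug-treated libraries thus lay above those of DMSO, and the combination overlapped each single drug. LINC00310 was at 24.2, 21.7 and 25.6 in DMSO, at 45.3, 58.4 and 63.1 in FK, at 20.9, 27.4 and 29.4 in Met and at 54.4, 31.3 and 35.1 in Met+FK. It was high in FK and overlapped DMSO in Met. The log2 differences in FK against DMSO were 0.60 (SE 0.12, limma-trend adjusted p = 0.0119) and 1.18 (SE 0.23, adjusted p = 0.0125). Both calls were lost without DMSO replicate 1 (adjusted p = 0.0551 and 0.0555). That of LINC00310 held without each other library of the comparison, while LINC00472, at a fold of 1.51, fell to a fold of 1.44 without DMSO replicate 3 and of 1.38 without FK replicate 2 and so lost its call there too.

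The other risers in FK were LINC02367 (2.12), LINC01088 (1.37), LINC01844 (1.24), LINC01176 (0.92) and LINC02762 (0.70), on the log2 scale. LINC02367, LINC01088 and LINC01844 rest on 11, 7 and 17 read pairs over the DMSO libraries. They met the minimum of 10 only through drug-treated libraries, so that their calls give no separate support. LINC01176 was at 15.003, 15.8 and 16.4 in DMSO, at 30.2, 34.5 and 27.5 in FK, at 36.6, 36.9 and 38.6 in Met and at 40.8, 34.6 and 24.4 in Met+FK. LINC02762 was at 48.1, 48.7 and 47.1 in FK and at 100.3, 88.1 and 97.6 in Met+FK. All libraries with either drug lay above the DMSO libraries for both genes. Met against DMSO and FK against DMSO share the DMSO libraries, and the Met values of these 5 genes, 2.29, 2.27, 2.03, 1.20 and 1.29, stand beside the FK values without a test of the difference. The limma-trend adjusted p in FK against DMSO ran from 0.0206 for LINC01176 to 0.0297 for LINC01088, and each of these 5 calls was lost without DMSO replicate 1, DMSO replicate 3 or FK replicate 2, with adjusted p between 0.05 and 0.167. That of LINC02367 was also lost without FK replicate 3 (0.0532).

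The fallers in FK were LINC01637 (-1.05), LINC01842 (-0.998), LINC01952 (-0.90), LINC00324 (-0.65) and LINC00857 (-0.64). LINC01842 went from 45.0, 44.3 and 39.9 in DMSO to 18.9, 23.9 and 20.7 in FK, and was at 17.8, 19.8 and 19.3 in Met. LINC01952, which starts 333 bp from H2AFV, the gene of a histone H2A.Z variant, went from 57.7, 61.1 and 57.3 to 38.7, 23.9 and 32.1 and was at 29.3, 22.7 and 25.4 in Met. Both were lower in every drug-treated library than in any DMSO library. LINC01637 was at 18.5, 34.5 and 34.8 in DMSO, 15.1, 7.96 and 18.4 in FK and 30.3, 35.9 and 30.4 in Met, so that it was low in FK alone of the single drugs. Its DMSO replicate 1 and FK replicate 3 nearly touched, with 16 read pairs in each. The limma-trend adjusted p ran from 0.0136 for LINC00857 to 0.0372 for LINC00324, and all 5 calls were lost without DMSO replicate 1 and without FK replicate 2, at adjusted p of 0.0501 to 0.162. Without DMSO replicate 3 the calls of LINC01637, LINC01842 and LINC01952 were lost too (adjusted p = 0.102, 0.0701 and 0.0634). That of LINC01637 was also lost without DMSO replicate 2 (0.0601), and that of LINC01842 without FK replicate 3 (0.0531). The call of LINC00324 held in only 1 of the 6 fits with a library left out, that without FK replicate 3. No neighbour within 50 kb of the 12 genes called in FK against DMSO was itself called. Of all genes tested only 2.73% rose and 0.754% fell in this comparison, so 12 neighbours could show little.

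The promoters of LINC00472, LINC01176 and LINC01842 are shown as those of the best covered riser, another riser and a faller in FK whose RefSeq start is the deposited start. LINC00472 is chr6:71420696-71420995 on the minus strand, LINC01176 is chr7:30390635-30390934 on the plus strand and LINC01842 is chr19:14333493-14333792 on the plus strand. The window of LINC01176 is 37.3% G and C with 0.333 CpG per 100 bases, while those of LINC00472 and LINC01842 are 68.7% and 72.3% with 10.3 and 8. None held any of the 4 motifs, so no letter is in capitals.
LINC00472: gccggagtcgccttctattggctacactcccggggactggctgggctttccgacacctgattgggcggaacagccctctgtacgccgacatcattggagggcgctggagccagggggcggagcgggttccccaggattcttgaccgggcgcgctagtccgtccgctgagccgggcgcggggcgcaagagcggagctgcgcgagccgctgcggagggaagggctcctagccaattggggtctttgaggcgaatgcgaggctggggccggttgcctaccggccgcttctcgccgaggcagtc
LINC01176: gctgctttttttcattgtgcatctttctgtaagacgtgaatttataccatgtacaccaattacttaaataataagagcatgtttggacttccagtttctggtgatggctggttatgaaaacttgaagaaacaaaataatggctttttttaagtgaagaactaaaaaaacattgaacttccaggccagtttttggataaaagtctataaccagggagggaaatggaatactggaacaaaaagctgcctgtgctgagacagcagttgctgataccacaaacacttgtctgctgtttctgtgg
LINC01842: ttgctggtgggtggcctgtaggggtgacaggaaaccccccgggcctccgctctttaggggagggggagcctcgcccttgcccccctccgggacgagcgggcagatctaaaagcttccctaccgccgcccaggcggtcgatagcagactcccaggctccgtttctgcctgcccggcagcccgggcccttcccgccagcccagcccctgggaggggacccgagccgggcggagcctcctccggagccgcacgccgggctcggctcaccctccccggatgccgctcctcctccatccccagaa

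Both drugs together changed 40.3% of the LINC genes. In Met+FK against DMSO 59 LINC genes rose (26.1%) and 32 fell (14.2%), where 13.7% and 11.3% of all genes tested did. The median difference was 0.11 on the log2 scale, against 0.014 for all genes, and the libraries did not overlap for 97.8% of the called LINC genes, against 97.9% of all called genes. The largest values were those of LINC01081 (3.19), LINC01088 (2.46), LINC02649 (2.40), LINC01844 (2.12), LINC01473 (2.02) and LINC01301 (1.93), and the smallest those of LINC01348 (-1.94), LINC01720 (-1.74), LINC01910 (-1.69), LINC00513 (-1.55), LINC00460 (-1.43) and LINC02643 (-1.36). LINC01301, which starts 141 bp from RAB2A, a small GTPase gene, was at 6.92, 10.8 and 6.14 in DMSO and at 36.6, 37.9 and 24.4 in Met+FK. In Met it was at 10.5, 31.2 and 34.5, replicate 1 lying within the DMSO range. LINC01720 went from 13.8, 27.6 and 23.5 in DMSO to 5.23, 4.12 and 7.80 in Met+FK, below every library of the other treatments. Of these 12 genes LINC01844, LINC01348, LINC01910, LINC00513 and LINC00460 averaged 10 or more both with and without metformin, and their calls held without any 1 library. For LINC01844 the average without metformin took in the FK libraries, its DMSO values all being under 10, so its call gives no separate support. The others of these 12 met the minimum through 1 side alone, so that their calls give no separate support either. LINC02643 lost its call without Met+FK replicate 2 (adjusted p = 0.0502).

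Metformin added to FK866-treated cells changed 66 of the 226 LINC genes. In Met+FK against FK 44 rose (19.5%) and 22 fell (9.73%), where 9.27% and 9.29% of all genes tested did, and the median difference was 0.12 against -0.011. This comparison shares no library with Met against DMSO. Of the 51 genes that rose in Met against DMSO, 29 rose here too, which is 56.9% of those 51 and 65.9% of the 44. Of the 26 that fell, 12 fell here, or 46.2% of the 26 and 54.5% of the 22. None was called in opposite directions, and 48 of the 51 and 24 of the 26 had the same sign. These counts include the 9 risers and 4 fallers that met the minimum through 1 side alone, for which the minimum favours the same direction in both comparisons. The like overlap over all genes tested was not counted. The median log2 difference in Met+FK against FK was 0.76 for the 51 and -0.57 for the 26.

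LINC01081 (3.27), LINC01301 (1.54), LINC02361 (1.498), LINC00963 (1.44), LINC02649 (1.38) and LINC01473 (1.36) rose most in Met+FK against FK. LINC02361 was at 29.3, 46.9 and 37.9 in FK and at 119, 106 and 97.6 in Met+FK, with DMSO at 53.1, 40.4 and 37.9 and Met at 87.8, 77.5 and 87.3. The libraries with metformin all lay above those without it. LINC01348 (-1.63), LINC02643 (-1.43), LINC01720 (-1.33), LINC01151 (-1.30), LINC01910 (-1.11) and LINC02598 (-1.10) fell most. LINC01151 was at 149, 199.9 and 161 in FK against 59.6, 75.8 and 69.3 in Met+FK, and at 133, 124 and 115 in DMSO against 54.3, 69.0 and 81.2 in Met. It was lower with metformin in every library, on either background. Of these 12, LINC01081, LINC01301, LINC02649, LINC01473, LINC02643 and LINC01720 met the minimum through 1 side alone. Their calls thus give no separate support, and their differences are given as a description. Among these 12, the calls of LINC01473 and LINC02598 were lost without Met+FK replicate 1 (adjusted p = 0.0601 and 0.052), and also without FK replicate 1 for LINC01473 (0.0655) and FK replicate 3 for LINC02598 (0.0523).

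**Figure D4:**
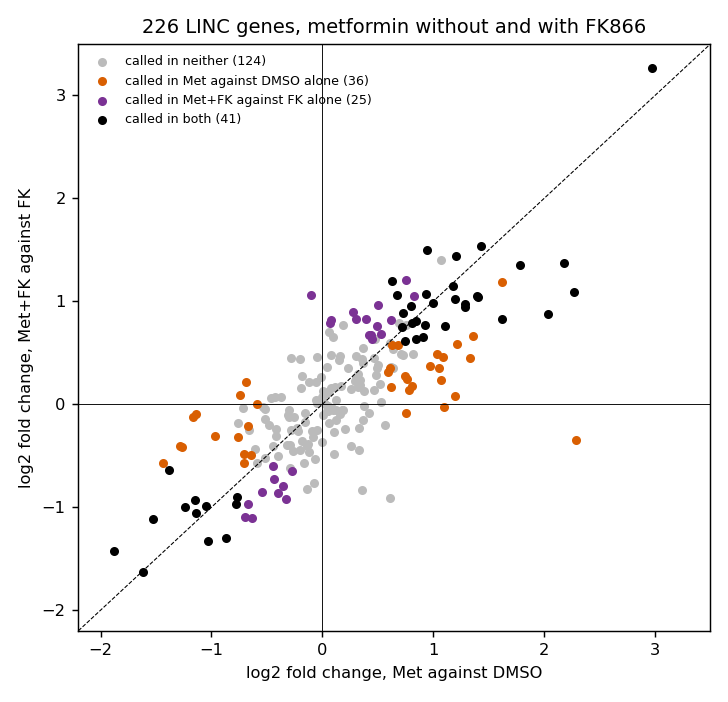
Log2 fold change of each of the 226 LINC genes in Met against DMSO (horizontal axis) and in Met+FK against FK (vertical axis), 2 comparisons without a shared library. Black points are the 41 called in both, orange the 36 called in Met against DMSO alone, purple the 25 called in Met+FK against FK alone and grey the 124 called in neither, and the dashed line marks equal values.

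FK866 added to metformin-treated cells changed no LINC gene past the thresholds. In Met+FK against Met limma-trend called 0 of 226, and 0.052% of all genes tested rose and 0.0065% fell. At an unadjusted p under 0.05 there were 10 LINC genes, and edgeR called none either, nor did DESeq2, which gave no adjusted p to 132. The replicate block also called none. In this comparison same-numbered libraries passed the pairing rule used here before but not after removal of GC and length trends. The smallest adjusted p with the block was 0.019, with no fold over 1.5 among the genes past 0.05. The median difference was -0.042 on the log2 scale, and single genes ranged from -0.70 to 0.69. LINC00472 differed by -0.17 (SE 0.12) and LINC00310 by 0.59 (SE 0.23). This comparison shares no library with FK against DMSO, and of the 7 risers and 5 fallers there, 4 and 2 had the same sign here.

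Whether the effect of FK866 differed with and without metformin was asked by the interaction, the Met+FK minus Met difference less the FK minus DMSO difference, at an adjusted p under 0.05 with no fold threshold. Limma-trend called no LINC gene, where 0.0065% of all genes tested were positive and 0.052% negative, and 28 LINC genes had an unadjusted p under 0.05. EdgeR called none, and DESeq2 called 4, all negative, while giving no adjusted p to 173. The smallest limma-trend adjusted p was 0.097, for LINC00472 (-0.77, SE 0.16). With the replicate number as a block, 8 were positive and 11 negative, among them LINC00472 (adjusted p = 0.0037), LINC02367 (-2.63), LINC01176 (-1.11) and LINC00662 (-0.37) below 0, and LINC01842 (1.05), LINC01952 (1.04), LINC00324 (0.84), LINC00857 (0.46), LINC00665 (0.33), LINC02154 (0.26) and LINC00963 (0.23) above it. That block is shared by all 4 treatments, whereas same-numbered libraries passed the pairing rule used here only in FK with DMSO and in Met+FK with Met. These calls thus rest on a block for which not all pairs of treatments passed that rule. The interaction holds the same FK and DMSO libraries that chose the genes called in FK against DMSO, so its values for those genes are not a separate measure.

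**Figure D5:**
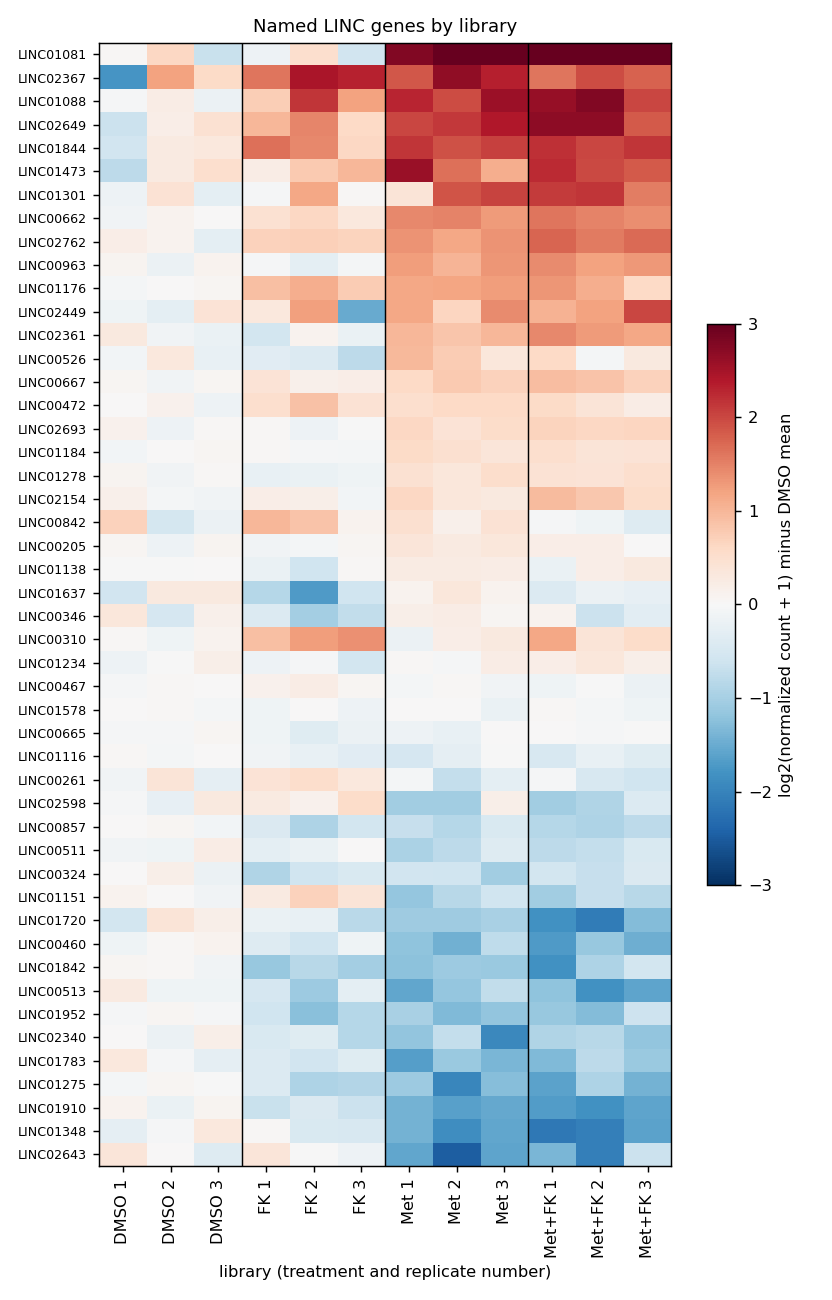
Log2(normalized count + 1) of 48 LINC genes less the mean of the DMSO libraries (colour, from -3 in blue to 3 in red) in each of the 12 libraries (columns), with genes ordered by their difference in Met against DMSO. LINC01081 is red and LINC01348 blue in every Met and Met+FK column, and LINC00310 is red in FK alone of the single drugs.

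Promoter windows were matched in RefSeq for 163 of the 226 genes, 67 of them within 50 bp of the deposited start. They were searched on both strands for TGANTCA (the AP-1 site with any middle base), TGACGTCA (the cAMP response element), CACGTG (the E-box) and TTGCATCA (the element that ATF4 shares with C/EBP), none of which contains another. TGANTCA also takes TGAATCA and TGATTCA, so that its shares are not those of the AP-1 site alone. TGANTCA was found in 12.3% of the 163, against 7.71% of all 35116 promoters in the table, and in 17.1% of the 35 matched genes that rose in Met, 17.6% of the 17 that fell and 9.91% of the 111 not called. CACGTG was found in 11.0% of them, against 7.26% of all promoters. TGACGTCA was found in 3.07% against 1.85%, and in 2 of the 35 risers. TTGCATCA was found in 1 of the 163, against 0.866% of all promoters, and in none of the matched genes called in Met. Beside the sequences shown, LINC00513 held TGANTCA at -180 (as TGATTCA) and -46 (as TGAATCA) and CACGTG at -77, LINC00963 held TGANTCA at 20, LINC00346 held it at -98 and -42, and LINC01348 held CACGTG at 41. The RefSeq starts of LINC00513, LINC00963 and LINC01348 lie 59744, 11714 and 4402 bp from the deposited ones, so that these windows may belong to another start than the one counted, while that of LINC00346 lies 57 bp away. The median G and C content was 60.3% for the LINC windows and 58.7% for all. A match is a run of letters and not a bound site.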

How the data were processed

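RNA of KP4 cells was measured in 12 libraries, 3 per treatment. Per the study's methods, the authors removed adapters (cutadapt), mapped to the hg38 build (STAR), counted fragments over genes (featureCounts) and normalized the counts (DESeq2). The deposited values are normalized counts, here a signal: counts divided by a size factor per library (0.867 to 1.21). The annotation used and the strand setting are not given in the sources used here. Recovered read pairs came out whole for 100% of values, within 0.01 read pairs.

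The 15376 genes that averaged 10 or more were fitted by limma-trend (limma 3.58.1, R 4.3.3) after adding a pseudocount of 1 and taking log2, each treatment having its own mean over all 12 libraries, so fold changes of low genes are understated. P-values were adjusted over all of them by Benjamini-Hochberg, and a fold over 1.5 was also required. The test was tried on simulated data with known changes. Alternatives were edgeR 4.0.16 and DESeq2 1.42.0 on the recovered counts, another pseudocount, filter, scaling or threshold, a fit of 6 libraries, removal of GC and length trends, a replicate block, and leaving out each library. Shares were compared with an exact permutation test in SciPy. Replicates differed by more than sampling noise (chi-square over degrees of freedom 5.69 to 51.4), so none was merged.

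Libraries with the same number were taken as paired where all 3 correlations of their deviations from the group means passed 0.1. They did in FK with DMSO (0.25, 0.42 and 0.22) and in Met+FK with Met (0.17, 0.20 and 0.23), and not in Met with DMSO (0.013, 0.33 and 0.25), Met+FK with DMSO (0.051, 0.16 and 0.019) or Met+FK with FK (0.046, 0.24 and 0.14). After removal of GC and length trends they were 0.136, 0.172 and 0.132 in FK with DMSO. In Met+FK with Met they were then 0.157, 0.096 and 0.071, so that not all passed 0.1. Correlations between libraries of different numbers were not computed, and the labels state no pairing. Passing 0.1 is thus a working rule and does not establish that libraries were paired.

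Genes named were the 10 highest by mean, up to 6 with the largest and 6 with the smallest difference in each of 5 comparisons among those called without overlap, those nearest the minimum, and LINC genes of known role, with tested neighbours within 50 kb. The genes and lists were chosen with earlier results of these data known. A ductal marker on the list is not reported here.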

Additional observations from a re-analysis of the deposited data

How the results depend on the processing

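Counts of LINC genes called higher and lower in Met against DMSO, Met+FK against DMSO and Met+FK against FK stayed within 1.5 times under every alternative run, with 45 to 47 and 20 to 32, 50 to 57 and 24 to 33, and 30 to 39 and 19 to 23 when 1 library was left out. The 0 of Met+FK against Met stayed 0 throughout (0 to 0 with a library left out). FK against DMSO, with 7 higher and 5 lower, did not hold: higher genes numbered 4 where all libraries had to reach 10, 1 with only the 6 libraries compared, and 0 to 11 with a library left out, and lower genes numbered 1 when all genes above 0 were tested, 0 with the 6 libraries, 1 with GC and length trends removed, 8 by adjusted p alone, and 0 to 9 with a library left out. The cause was not tested.

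The replicate block gave 12 higher and 9 lower in FK against DMSO. The interaction, with none called, gave 8 positive and 11 negative under the block, 4 and 5 with the block and GC and length removed, 1 negative with those trends removed alone, 4 negative with DESeq2, and 0 to 2 positive and 0 to 6 negative with a library left out. The block spans all treatments, not all pairs of which pass the pairing rule used here. It moved no other count by over 1.5 times. For the summed share, the FK, Met and Met+FK ratios ran from 1.01 to 1.04, 1.32 to 1.36 and 1.26 to 1.33 with a library left out, and the Met ratio was 1.23 with summed normalized counts.

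Of 1920 refits of single LINC genes named above, over 109 differences past an adjusted p of 0.05, 1777 kept their call or, where the fold was under 1.5, stayed past that p, 143 did not and 0 changed sign. A DESeq2 fit without an adjusted p was not counted. At a median of 41.0 normalized counts, small differences of most LINC genes were not detectable.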

Other observations

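Other long noncoding RNA genes were counted beside the LINC genes, by name or by GENCODE class, with no test between classes. In Met against DMSO 20.4% of 397 antisense genes rose and 9.07% fell, as did 9.68% and 6.45% of 62 divergent transcripts and 7.69% and 15.4% of 26 host genes of microRNAs. Of all 2501 lncRNA genes tested 16.3% rose and 9.56% fell, and of 12796 protein-coding genes 12.1% rose and 10.3% fell.

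Of 23 lncRNA genes listed by their own names, 8 rose (34.8%) and 2 fell (8.70%) in Met against DMSO. Over all genes tested these shares were 12.8% and 10.2%. The nuclear RNAs MALAT1 and NEAT1, the latter the scaffold of paraspeckles, rose by 1.81 (SE 0.13) and 2.02 (SE 0.25) on the log2 scale, and GAS5, a snoRNA host, rose by 0.997 (SE 0.08). DANCR, also a snoRNA host, fell by 0.84 (SE 0.10), and the imprinted H19, with a mean of 19.5 normalized counts, fell by 1.05 (SE 0.26). In FK against DMSO 4 rose and none fell: NEAT1 by 1.22, MALAT1 by 1.04, LUCAT1 by 0.82 and KCNQ1OT1 by 0.77, with limma-trend adjusted p of 0.0136, 0.000423, 0.000749 and 0.0288. Of all genes tested 2.73% rose and 0.754% fell there. No fit with a library left out is given for these 4 genes. LUCAT1 differed by -0.01 in Met against DMSO. In Met+FK against Met none of the 23 was called, where 0.052% of all genes tested rose and 0.0065% fell.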
